A study of Homo sapiens with 8 samples.

Results

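Transcription of 10 genes that make, break down or bind hyaluronan was followed in control and senescent human lung fibroblasts, the latter with a control shRNA or with knockdown of METTL3 or METTL14. The genes were CEMIP, the synthases HAS1, HAS2 and HAS3, the hyaluronidases HYAL1, HYAL2 and HYAL3, and the binding proteins CD44, VCAN and TNFAIP6. They were chosen by name as a set around CEMIP, and CEMIP was picked from the values themselves, because it fell strongly after both knockdowns. All 10 were found among the 27945 genes of the table, and 7 of the 10 were among the 12844 genes with enough counts to be tested. The 3 left out were HAS1, HYAL1 and HYAL3.

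The assay was fastGRO-seq, a nuclear run-on method in which polymerases already on the DNA extend their transcripts in isolated nuclei, so that the sequenced RNA reports ongoing transcription and not stored mRNA. The 8 libraries formed 4 groups with 2 replicates each. All came from IMR90, a primary human diploid lung fibroblast strain, which in this system carries an inducible fusion of the estrogen receptor with H-RASG12V (ER: RAS). Control cells were labelled WT and untreated. The other 3 groups were senescent cells, in which the fusion had been switched on with 4-hydroxytamoxifen, and which carried shControl, shMETTL3 or shMETTL14. The general methods of the study give a dose of 100 nM and a harvest on day 6 for this induction. The label of the control cells names no shRNA, so the effect of senescence and that of shRNA infection cannot be told apart in a comparison with control cells. Each knockdown was labelled with a single shRNA name. The labels do not say that replicates were separate cultures, although the study calls its fastGRO-seq experiments biologically independent, and p-values measure only the spread between these libraries.

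Hyaluronan is a long unbranched sugar chain of the extracellular matrix, spun out through the plasma membrane by the HAS enzymes from UDP-glucuronic acid and UDP-N-acetylglucosamine. Chain length matters for what it does: long chains hydrate and cushion tissue, and shorter fragments are known as signals of tissue damage. CEMIP, also called KIAA1199 or HYBID, is required for hyaluronan depolymerization in skin fibroblasts, and the HYAL enzymes cleave the chain at the cell surface and in lysosomes. CD44 is the main cell surface receptor of hyaluronan, versican (VCAN) is a large proteoglycan that binds it in the matrix, and TSG-6 (TNFAIP6) is an inflammation-induced protein that links it to the heavy chains of inter-alpha-inhibitor.

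The libraries held 14897360 to 20306299 counts, of which 86.2 to 92.5% fell on 21 ribosomal RNA rows, leaving 1513930 to 2048475 counts on all other genes. Levels are given below as raw counts per replicate, and as normalized counts, which are counts scaled by the composition-adjusted library size (TMM) to the mean of the 8 libraries. METTL3 had 80 and 78 counts in control, 77 and 47 in senescent shControl, 16 and 19 in senescent shMETTL3 and 73 and 56 in senescent shMETTL14 cells. METTL14 had 60 and 55, 24 and 28, 41 and 48, and 18 and 14 counts in the same order. The METTL3 gene was thus low in both shMETTL3 libraries, at a log2 fold change of -2.04 ± 0.31 (SE) from senescent shControl. For METTL14 in the shMETTL14 libraries the log2 fold change was -0.86 ± 0.34, with an edgeR adjusted p of 0.076. An shRNA acts on mature RNA, so nascent counts are an indirect check of it. All 7 fibroblast markers (COL1A1, COL1A2, COL3A1, PDGFRB, THY1, DCN and LUM) were tested, with at least 11 counts in every library. Of the 12 epithelial, endothelial and immune markers none passed the filter, and their highest count in any library was 10. All 7 fibroblast markers were lower in senescent shControl than in control cells, and their summed normalized counts ran from 18027 to 19483 in control, 5425 to 7341 in senescent shControl, 6249 to 8042 in senescent shMETTL3 and 2838 to 3836 in senescent shMETTL14 cells. Their part in the results below was not tested. In such bulk libraries, fewer transcribing cells and less RNA per cell cannot be told apart.

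The CEMIP gene lies on chr15:81071684-81244003 of hg19, plus strand. Its counted span of 172 kb takes in exons and introns, and 4.36% of it is exonic in the GENCODE annotation. TNFAIP6 lies on chr2:152214106-152236562, plus strand. The 250 bases before the RefSeq start sites of these 2 genes are shown because these are the members with the largest fall and the largest rise after knockdown. They come from the RefSeq promoter table of GRCh38.p14, which held 9 of the 10 members and not HAS2, at chr15:80779120-80779369 and chr2:151357342-151357591, both on the plus strand. The same letters end 27 bases inside the counted span for CEMIP and directly before it for TNFAIP6. Capitals mark matches on both strands. The letters TATAAA stand for a TATA box, GGGCGG for a GC box, CCAAT for a CCAAT box, TGANTCA for AP-1 and TTNCNNAA for C/EBP, and the NF-kB motif was also searched. No matches of different motifs overlap in these 2 windows.
CEMIP: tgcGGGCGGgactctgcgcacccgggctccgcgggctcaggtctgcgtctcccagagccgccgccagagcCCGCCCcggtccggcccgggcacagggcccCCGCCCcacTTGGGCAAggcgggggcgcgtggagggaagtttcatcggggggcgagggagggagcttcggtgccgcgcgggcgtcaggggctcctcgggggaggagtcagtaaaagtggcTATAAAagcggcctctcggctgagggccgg
TNFAIP6: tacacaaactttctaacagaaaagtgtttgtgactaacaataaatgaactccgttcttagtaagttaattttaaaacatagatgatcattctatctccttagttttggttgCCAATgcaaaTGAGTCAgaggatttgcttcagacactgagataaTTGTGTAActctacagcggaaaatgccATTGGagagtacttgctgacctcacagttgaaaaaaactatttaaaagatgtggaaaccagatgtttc
The CEMIP window was rich in G and C (74.4%) with 28 CpG dinucleotides, against medians of 58.0% and 11 over all 35116 promoters in the table. It held a TATA box 30 bases before the start, which 10.7% of all promoters hold somewhere in this window, 3 GC boxes (at least 1 in 42.6% of promoters) and a C/EBP match (33.2%). The TNFAIP6 window was poor in G and C (34.4%) with 2 CpG. It held an AP-1 match that began 129 bases before the start (6.57% of promoters), 2 CCAAT boxes (32.0%) and a C/EBP match 95 bases before the start. Neither window held the NF-kB letters (9.96% of promoters). A match describes letters and not a binding site, and no match says nothing about a factor.

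CEMIP had 865 and 868 counts in control, 218 and 282 in senescent shControl, 25 and 17 in senescent shMETTL3, and 10 and 32 in senescent shMETTL14 cells. Normalized, that was 761 ± 7.18 (SD, n = 2) in control, 286 ± 39.7 in senescent shControl, 20.9 ± 6.72 in senescent shMETTL3 and 21.8 ± 16.8 in senescent shMETTL14 cells. The groups did not overlap between control, senescent shControl and the knockdowns, and the 2 knockdown groups overlapped each other. Senescent shControl cells kept 37.6% of the control level, and the knockdowns 2.75% (shMETTL3) and 2.87% (shMETTL14).

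The log2 fold change of CEMIP was -1.41 ± 0.17 (SE) from control to senescent shControl, then -3.78 ± 0.26 from senescent shControl to shMETTL3 and -3.72 ± 0.26 to shMETTL14. These falls are given as a description, with no test, because CEMIP was selected on them. The shMETTL14 replicates differed 10 to 32 in counts: without replicate 1 the change from senescent shControl was -3.10, and without replicate 2 it was -4.82. Between the knockdowns the log2 difference, shMETTL14 minus shMETTL3, was 0.06 ± 0.39, with a 95% interval from -0.74 to 0.85. The set has no threshold on any value, so no gene lies just inside or outside it.

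**Figure D1:**
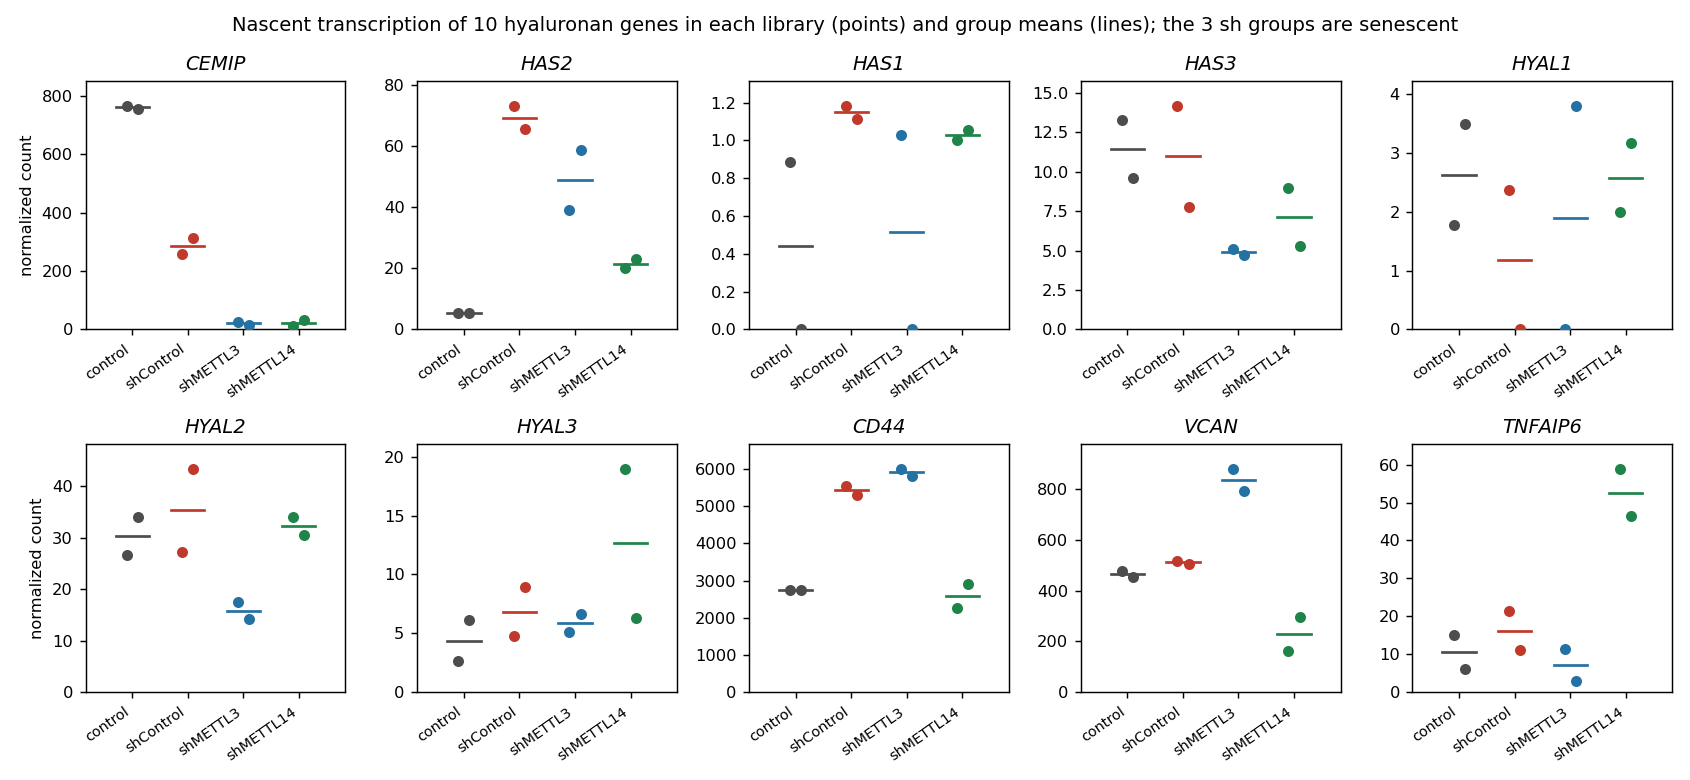
Normalized counts (vertical axis, each panel on its own scale from 0) of the 10 genes in the 8 libraries; each point is a library and each line a group mean. CEMIP falls from 761 in control to 286 in senescent shControl and near 21 after either knockdown, HAS2 is at 5.27 in control and 69.5 in senescent shControl cells, and TNFAIP6 is highest, at 52.7, in senescent shMETTL14 cells.

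MESD, a chaperone gene for LRP5 and LRP6 on the opposite strand, shares 2.52% of the CEMIP span. It had 167 and 169, 67 and 76, 42 and 44, and 71 and 53 counts in control, senescent shControl, shMETTL3 and shMETTL14 cells, more than CEMIP itself in the knockdown libraries. The share of the remaining CEMIP counts that came from the overlap cannot be read from gene totals. Across the table, in 313 of 315 pairs of a gene nested in another of the opposite strand, with at least 100 counts over the libraries in each, the outer gene had at least as many counts as the inner gene in every library. The counts were therefore not read as strand-specific here.

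HAS2, the synthase on chromosome 8, had 6 and 6 counts in control, 62 and 59 in senescent shControl, 38 and 62 in senescent shMETTL3 and 20 and 22 in senescent shMETTL14 cells. All 6 senescent libraries were above both control libraries, and both shMETTL14 libraries were below all other senescent libraries. The normalized level was 5.27 ± 0.0626 (SD, n = 2) in control and 69.5 ± 5.40 in senescent shControl cells, which is 13.2-fold higher, at a log2 fold change of 3.69 ± 0.38. The log2 differences from control were 3.19 ± 0.39 for shMETTL3 and 2.01 ± 0.45 for shMETTL14. These 3 differences are given as a description, with no p-value, because HAS2 passed the filter on low counts only through the senescent groups, where it is high. Against senescent shControl, where no test is given because the set was built on these 2 contrasts, the log2 fold change was -0.50 ± 0.27 for shMETTL3 and -1.68 ± 0.30 for shMETTL14. The first of these was 0.13 when libraries were scaled by size alone, a scaling under which the median of all genes was 0.58. The 2 knockdowns differed, with shMETTL14 lower by a log2 difference of -1.18 ± 0.31 (adjusted p = 0.0040). That call was lost without shMETTL3 replicate 2 (adjusted p = 0.077) and without shMETTL14 replicate 1 (adjusted p = 0.055). HAS2-AS1, an antisense RNA that shares 7.21% of the HAS2 span, had 2 and 1, 10 and 11, 6 and 11, and 2 and 6 counts in the 4 groups. It too passed the filter only through senescent libraries.

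The other synthases, HAS1 and HAS3, had few counts. HAS1 (chr19:52216365-52227245, minus strand) had 0 or 1 count in every library, within the 3 counts per library that a count of 0 allows. HAS3 (chr16:69140129-69152619, plus strand) had 15 and 11, 12 and 7, 5 and 5, and 9 and 5 counts in control, senescent shControl, shMETTL3 and shMETTL14 cells, and no contrast passed the test. The estimate farthest from 0 was that for shMETTL3 against control, at a log2 fold change of -1.19 with a 95% interval from -2.43 to 0.05. CHTF8 shares 5.67% of the HAS3 span on the opposite strand and had 28 to 62 counts, more than HAS3 in every library.

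The 3 hyaluronidase genes lie in a cluster on chromosome 3, all on the minus strand. HYAL2 (chr3:50355221-50360281), which codes for a membrane-anchored hyaluronidase, is short, at 5.06 kb, and 87.4% of its counted span is exonic, the largest share among the members. It had 30 and 39 counts in control, 23 and 39 in senescent shControl, 17 and 15 in senescent shMETTL3 and 34 and 29 in senescent shMETTL14 cells. The shMETTL3 libraries were the lowest, below all 6 others, and the other 3 groups overlapped. HYAL2 was lower in senescent shMETTL3 than in control cells (log2 fold change -0.93 ± 0.36, adjusted p = 0.038), and higher in shMETTL14 than in shMETTL3 cells (1.03 ± 0.36, adjusted p = 0.029), but neither call held with DESeq2 (adjusted p = 0.15 and 0.12). The first was also lost without control replicate 1, control replicate 2 or shMETTL3 replicate 2 (adjusted p = 0.052, 0.22 and 0.14), and the second without shMETTL3 replicate 2, shMETTL14 replicate 1 or shMETTL14 replicate 2 (adjusted p = 0.11, 0.17 and 0.066). From control to senescent shControl the log2 fold change was 0.23, with an interval from -0.43 to 0.88. Against senescent shControl it was -1.16 ± 0.36 with shMETTL3 and -0.13 ± 0.32 with shMETTL14. HYAL1, a lysosomal hyaluronidase, had at most 4 counts in any library. HYAL3 had 3 to 8 counts in 6 libraries and 19 and 6 in the shMETTL14 libraries, with NAA80 nested in its span on the same strand, and was not tested.

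CD44 (chr11:35160417-35253949, plus strand) was the most highly transcribed member. It had 3102 and 3143 counts in control, 4688 and 4773 in senescent shControl, 5860 and 6127 in senescent shMETTL3 and 2264 and 2755 in senescent shMETTL14 cells. Normalized levels were 2742 ± 7.13 (SD, n = 2), 5427 ± 163, 5915 ± 138 and 2582 ± 451, so that the shMETTL14 libraries overlapped with control and the other senescent libraries lay well above both. CD44 rose 1.98-fold in senescent shControl cells (log2 fold change 0.98 ± 0.14, adjusted p = 3.8e-06) and was also higher in senescent shMETTL3 than in control cells (1.11 ± 0.14, adjusted p = 3.4e-07). In senescent shMETTL14 cells the difference from control was -0.09 ± 0.14 (adjusted p = 0.65, interval -0.37 to 0.20). The 2 knockdowns differed by -1.20 ± 0.14, shMETTL14 minus shMETTL3 (adjusted p = 2.5e-07). Against senescent shControl, CD44 changed by 0.12 ± 0.14 with shMETTL3 and by -1.07 ± 0.14 with shMETTL14.

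VCAN (chr5:82767493-82878122, plus strand) had 540 and 521 counts in control, 438 and 456 in senescent shControl, 860 and 838 in senescent shMETTL3 and 161 and 282 in senescent shMETTL14 cells. Both shMETTL3 libraries were above all others and both shMETTL14 libraries below all others, and control and senescent shControl lay close, at 466 ± 17.3 and 513 ± 7.29 normalized counts (SD, n = 2). The 1.10-fold difference between those 2 groups did not pass the test (log2 fold change 0.14 ± 0.17, adjusted p = 0.61). Against control, VCAN was higher in senescent shMETTL3 cells (0.85 ± 0.17, adjusted p = 0.00019) and lower in senescent shMETTL14 cells (-1.03 ± 0.18, adjusted p = 4.2e-05). The latter was -0.63 without shMETTL14 replicate 1 and -1.52 without replicate 2. The knockdowns differed by -1.88 ± 0.18, shMETTL14 minus shMETTL3 (adjusted p = 1.2e-08). The changes from senescent shControl were 0.71 ± 0.17 with shMETTL3 and -1.17 ± 0.18 with shMETTL14. VCAN-AS1, an RNA of the opposite strand, lies wholly inside VCAN, covers 28.0% of it, and had 44.3 to 53.9% as many counts as VCAN in every library. Reads of these 2 genes cannot be told apart where they overlap.

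TNFAIP6 had 17 and 7 counts in control, 18 and 10 in senescent shControl, 11 and 3 in senescent shMETTL3 and 59 and 44 in senescent shMETTL14 cells. Only the shMETTL14 libraries stood apart, above the other 6, which overlapped. It passed the filter on low counts in libraries of the other groups too. TNFAIP6 was higher in senescent shMETTL14 than in control cells (log2 fold change 2.31 ± 0.42, adjusted p = 8.0e-05) and than in senescent shMETTL3 cells (2.91 ± 0.47, adjusted p = 2.4e-05). Leaving out a library moved these sizes but not the calls: the first was 3.09 without control replicate 1 and 1.80 without control replicate 2, and the second 4.17 without shMETTL3 replicate 1 and 2.23 without shMETTL3 replicate 2. From control, the change was 0.60 ± 0.52 in senescent shControl (interval -0.46 to 1.67) and -0.60 ± 0.59 in senescent shMETTL3 cells (interval -1.82 to 0.62). Against senescent shControl it was -1.20 ± 0.57 with shMETTL3 and 1.70 ± 0.42 with shMETTL14. LOC101929319, on the opposite strand, covers 97.0% of TNFAIP6 and had 66.7 to 96.6% as many counts, with 57 and 39 in the shMETTL14 libraries, so its counts and those of TNFAIP6 cannot be told apart.

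**Figure D2:**
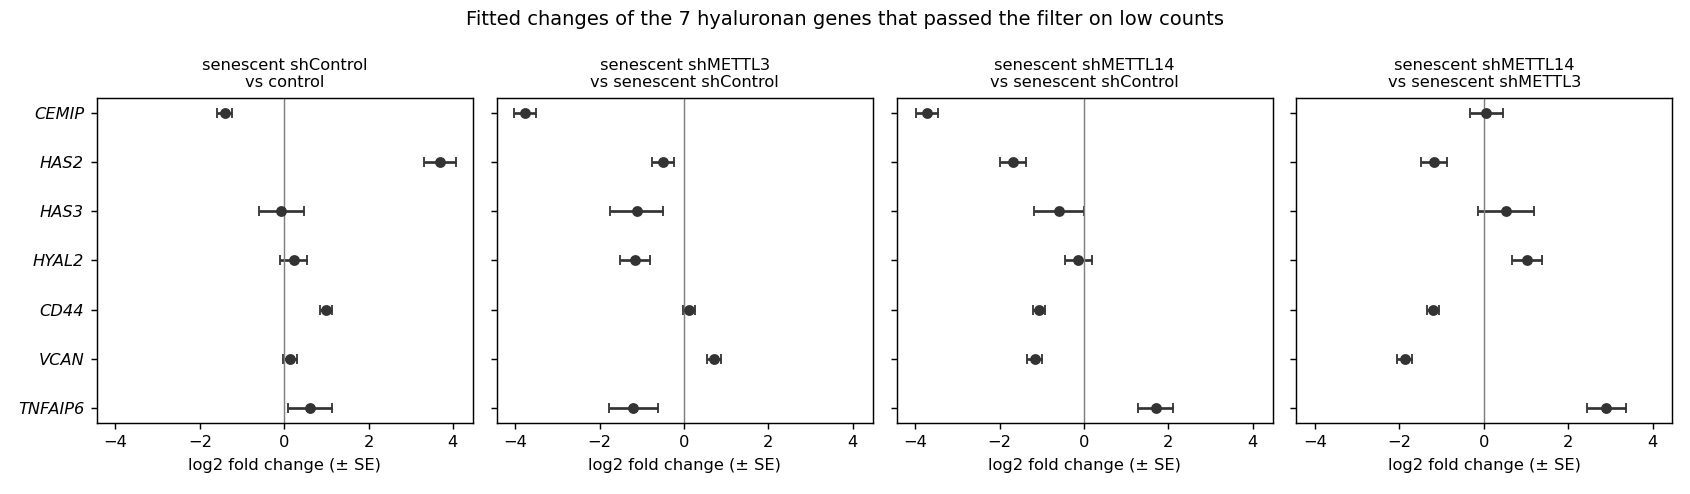
Fitted log2 fold changes (horizontal axis) with standard errors of the 7 genes that passed the filter, in 4 contrasts between the groups. CEMIP lies at -3.78 and -3.72 after the knockdowns, VCAN at 0.71 with shMETTL3 and -1.17 with shMETTL14, and TNFAIP6 at -1.20 and 1.70.

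Counted over the tested members, in senescent shControl against control cells 2 of 7 were called higher (13.3% of all genes tested were) and 1 lower (13.3%), at an edgeR adjusted p below 0.05. For senescent shMETTL3 against control, 3 were called higher (20.1% of all genes) and 2 lower (20.1%). For senescent shMETTL14 against control, 2 were higher (19.7%) and 2 lower (20.5%). Between shMETTL14 and shMETTL3, 2 were higher (16.5%) and 3 lower (18.7%). In each contrast with control cells the lower calls include CEMIP, which was chosen on its values, and the higher calls include HAS2, which passed the filter only through the senescent groups, so nothing about the members is read from those counts. In the contrasts that chose CEMIP, 1 was called higher (12.3%) and 2 lower (11.2%) with shMETTL3 against senescent shControl, and 1 higher (9.15%) and 4 lower (12%) with shMETTL14, from which nothing is read. Counts of 1 to 4 among 7 members are small numbers to set beside these shares. The knockdown contrasts share the senescent shControl libraries, or the control libraries, so they are not independent of each other.

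Levels can be compared between genes only per length of gene, here as RPKM, which is reads per kb of counted span scaled to the TMM-adjusted library size with ribosomal counts included. In control cells CD44 stood first, at 1.64 ± 0.00426 (SD, n = 2), followed by HYAL2 at 0.334 ± 0.0577, CEMIP at 0.246 ± 0.00233 and VCAN at 0.235 ± 0.00875. HYAL2 lay above CEMIP in both replicates, and CEMIP and VCAN differed by about the spread of VCAN. HAS3, TNFAIP6 and HAS2 followed at 0.0511 ± 0.0117, 0.0263 ± 0.0157 and 0.0104 ± 0.000123. In senescent shControl cells CEMIP, at 0.0926 ± 0.0129, lay below HAS2 at 0.137 ± 0.0106, and the replicates did not overlap. In the knockdown groups CEMIP was the lowest of the 7, at 0.00677 ± 0.00218 in shMETTL3 and 0.00708 ± 0.00543 in shMETTL14 cells, where its next neighbours were TNFAIP6 at 0.0176 ± 0.0148 and HAS3 at 0.0319 ± 0.0118. In shMETTL3 cells the spreads of CEMIP and TNFAIP6 overlapped.

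**Figure D3:**
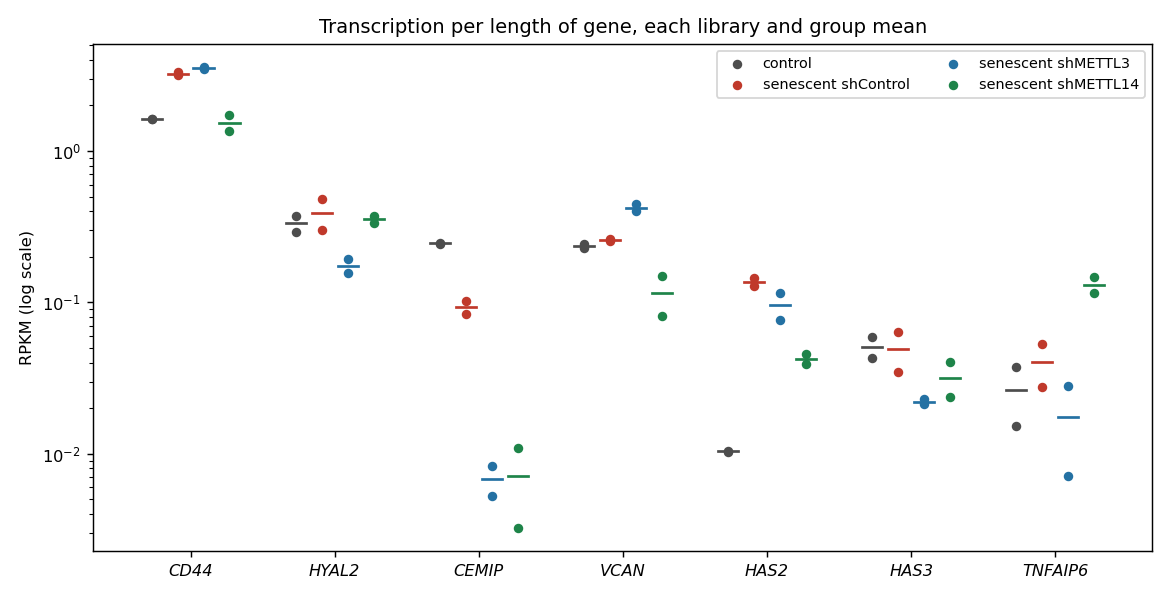
RPKM (reads per kb of gene span, scaled to library size, vertical log axis) for the 7 tested genes; each point is a library, each line a group mean. CD44 is highest in every group, from 1.54 to 3.53, and CEMIP moves from 0.246 in control cells to the lowest place after both knockdowns.

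Of 60 other genes that supply, break down or bind hyaluronan or work with CD44 and versican, 37 were tested, and the 23 others had at most 8 counts in any library. In senescent shControl against control cells 11 rose and 5 fell, where 13.3% of all genes tested were called in each direction. The median log2 fold change was 0.22, against -0.03 over all genes tested. Without shControl replicate 1 the calls came to 9 of the 37 in both directions together, where 13.4% of all genes were called, against 16 of 37 and 26.6% with all libraries. The split depended on the scaling: by library size alone 5 rose and 13 fell, beside 5.85% and 39% of all genes, and the median was -0.28 for the list and -0.53 for all genes. Scaled by the upper quartile of counts, 10 rose and 6 fell, beside 12.2% and 15.1% of all genes. With DESeq2, 10 rose and 1 fell, beside 9.58% and 7.07%. A called gene can have passed the filter on low counts only through groups where it was high. The calls were therefore also counted over genes with at least 10 counts in a library of both groups compared, a limit chosen after the data were seen. This left out ADAMTS15, a protease of the ADAMTS family, among the falls, so that 11 of 34 genes rose and 4 fell, beside 12.9% and 13.2% of all genes under the same limit. Of the 12 tested genes that supply the UDP-sugar precursors, 6 rose and 0 fell, or 2 rose and 2 fell by library size alone, beside the same backgrounds, and whether this group differs from other genes was not tested. Scaled by the upper quartile, and also with DESeq2, 6 of the 12 rose and 0 fell. GFPT2, of the enzyme pair for the first and rate-limiting step of the hexosamine pathway, had 20 and 16 counts in control, 181 and 154 in senescent shControl, 194 and 197 in senescent shMETTL3 and 226 and 235 in senescent shMETTL14 cells. Its rise in senescent shControl was 3.60 ± 0.23 on the log2 scale (adjusted p = 1.2e-12), and its log2 difference from control was 3.60 ± 0.22 with shMETTL3 and 3.89 ± 0.22 with shMETTL14. GNPNAT1, which acetylates glucosamine 6-phosphate, rose by 1.28 ± 0.22 (adjusted p = 5.7e-05), and MMP14, a membrane protease that sheds CD44, by 1.64 ± 0.15 (adjusted p = 2.5e-09). Falls were seen for LAYN, the hyaluronan receptor layilin (to 49.6% of the control level, from 82 and 88 to 24 and 41 counts, adjusted p = 0.0067, and 0.057 with DESeq2), for ADAMTS1, a protease that cleaves versican (-0.93 ± 0.14, adjusted p = 7.1e-06), and for EZR, or ezrin, which ties CD44 to actin (-0.57 ± 0.21, adjusted p = 0.046, and 0.18 with DESeq2).

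With shMETTL3 against senescent shControl, 2 of the 37 rose and 13 fell, where 12.3% of all genes tested were called higher and 11.2% lower. The median was -0.20, against -0.03 over all genes. By library size alone the split turned to 12 higher and 3 lower, beside 41.2% and 2.75% of all genes, and the medians to 0.41 and 0.58. Scaled by the upper quartile of counts, 2 were higher and 13 lower, beside 11.6% and 11.8% of all genes. With DESeq2, 0 were higher and 6 lower, beside 7.45% and 5.67%. Among the falls were HMMR, a hyaluronan receptor (from 4 and 12 to 2 and 0 counts), and ADAMTS15 (from 3 and 9 to 1 and 0), both under 10 counts in the knockdown libraries and highest in control cells. With the limit on both groups 2 of 34 rose and 11 fell, beside 13.1% and 11.1% of all genes. Of the 12 precursor genes 5 fell and 0 rose, or 0 fell and 2 rose by library size alone. Scaled by the upper quartile, 5 of them fell and 0 rose, and with DESeq2 3 fell and 0 rose. The named falls were EZR (-1.28 ± 0.26, adjusted p = 0.00058), GNPNAT1 (-1.03 ± 0.22, adjusted p = 0.00092) and UGP2, which makes UDP-glucose (-0.85 ± 0.20, adjusted p = 0.0030), of which GNPNAT1 and UGP2 were not called by library size alone (adjusted p = 0.19 and 0.45). The rises were ADAM17, a sheddase of cell surface proteins (0.56 ± 0.16, adjusted p = 0.0097), and HEXA, a lysosomal hexosaminidase (0.47 ± 0.16, adjusted p = 0.032), and neither was called by DESeq2 (adjusted p = 0.0504 and 0.13). GFPT2 was at 0.00 ± 0.16.

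With shMETTL14 against senescent shControl, 3 rose and 9 fell, where 9.15% of all genes tested were called higher and 12% lower. The median was -0.21, against 0.00 over all genes. By library size alone 11 were higher and 4 lower, beside 24.6% and 5.52% of all genes, with medians of 0.15 and 0.35. Scaled by the upper quartile of counts, 4 were higher and 8 lower, beside 10.1% and 11.3% of all genes. With DESeq2, 2 were higher and 4 lower, beside 4.42% and 7.4%. HMMR and ADAMTS15 were among these falls too, and with the limit on both groups 3 of 31 rose and 7 fell, beside 9.25% and 12.3% of all genes. Of the precursor genes 1 fell and 0 rose, or 0 fell and 4 rose by library size alone. Scaled by the upper quartile, 1 of them fell and 0 rose, and with DESeq2 0 fell and 0 rose. ADAMTS5, another protease of versican, fell by 2.37 on the log2 scale (SE 0.38, adjusted p = 3.7e-05), from 46 and 43 to 7 and 12 counts. ADAM10, a sheddase of CD44, fell by 1.12 (SE 0.15, adjusted p = 2.7e-06) and MMP14 by 1.05 (SE 0.15, adjusted p = 7.2e-06). EZR rose by 0.86 ± 0.21 (adjusted p = 0.0042), ADAM17 by 0.65 ± 0.16 (adjusted p = 0.0035) and ADAMTS9, which also cleaves versican, by 0.57 ± 0.18 (adjusted p = 0.025, and 0.15 with DESeq2). These counts of calls depended on the tool, and so did those over all genes. In both directions together, edgeR called 15 of the 37 and 23.4% of all genes with shMETTL3, and 12 of the 37 and 21.2% of all genes with shMETTL14. DESeq2 called 6 of the 37 with shMETTL3, where it called 13.1% of all genes, and 6 with shMETTL14, where it called 11.8%. Without shControl replicate 2 there were 4 calls for shMETTL3 (10.9% of all genes) and 5 for shMETTL14 (10.1%), and without shMETTL14 replicate 1 there were 5 for shMETTL14 (9.34%).

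Set against control cells, 12 of the 37 were higher and 12 lower in senescent shMETTL3, and 12 higher and 14 lower in senescent shMETTL14 cells. Of all genes tested, 20.1% were called higher and 20.1% lower in the first contrast, and 19.7% higher and 20.5% lower in the second. The medians were -0.25 and 0.02, against -0.05 and 0.00 over all genes. By library size alone 12 were higher and 10 lower in the first, beside 22.6% and 15.8% of all genes, and 10 higher and 14 lower in the second, beside 14.2% and 24%. These calls include genes under 10 counts in both libraries of the lower group, namely SPP1, ADAMTS4, HMMR and ADAMTS15 with shMETTL3 and SPP1, HMMR, ADAMTS15, HAPLN3 and SUSD5 with shMETTL14. With the limit on both groups 10 of 33 were higher and 10 lower in the first contrast, beside 19.6% and 18.4% of all genes, and 11 of 31 higher and 10 lower in the second, beside 19.1% and 18.8%. MMP14 was higher than control in shMETTL3 cells (1.64 ± 0.15, adjusted p = 1.2e-09), and EZR (-1.86 ± 0.24, adjusted p = 4.6e-07), LAYN (-1.21 ± 0.27, adjusted p = 0.00076) and ADAMTS1 (-1.13 ± 0.14, adjusted p = 1.8e-07) were lower. In shMETTL14 cells ADAMTS9 (1.40 ± 0.19, adjusted p = 1.2e-06) and GNPNAT1 (1.39 ± 0.21, adjusted p = 7.9e-06) were higher, and ADAMTS5 (-2.53 ± 0.36, adjusted p = 2.6e-06), LAYN (-1.86 ± 0.30, adjusted p = 1.2e-05) and ADAM10 (-1.52 ± 0.15, adjusted p = 2.7e-09) were lower. CEMIP2, a relative of CEMIP with a transmembrane segment, was higher than control in all senescent groups, with log2 fold changes of 1.22 ± 0.14 in shControl (adjusted p = 2.1e-07), 1.13 ± 0.14 in shMETTL3 (adjusted p = 3.7e-07) and 1.38 ± 0.14 in shMETTL14 cells (adjusted p = 1.3e-08). Its counts were 170 and 175 in control, 303 and 312 in senescent shControl, 306 and 368 in senescent shMETTL3 and 420 and 348 in senescent shMETTL14 cells. CEMIP and CEMIP2 thus went in opposite directions from control in every senescent group.

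In shMETTL14 set against shMETTL3 cells, 9 of the 37 were higher and 5 lower, where 16.5% of all genes tested were called higher and 18.7% lower. The median was -0.01, against 0.01 over all genes. By library size alone 5 were higher and 9 lower, beside 9.16% and 27.1% of all genes, with medians of -0.27 and -0.25. Scaled by the upper quartile of counts, 9 were higher and 5 lower, beside 18.3% and 17.3% of all genes. With DESeq2, 8 were higher and 4 lower, beside 9.44% and 13.3%. HAPLN3 and SUSD5, under 10 counts in both shMETTL14 libraries, were among the lower, and with the limit on both groups 9 of 32 were higher and 3 lower, beside 16.9% and 20% of all genes. Of the precursor genes 5 were higher and 0 lower, or 4 and 1 by library size alone, among them GNPNAT1 (1.14 ± 0.21, adjusted p = 0.00014) and the hexokinase gene HK1 (0.89 ± 0.16, adjusted p = 7.0e-05). Scaled by the upper quartile, 5 precursor genes were higher and 0 lower, and with DESeq2 4 were higher and 0 lower. EZR differed most among the rises, at 2.14 ± 0.24 (adjusted p = 1.0e-07). ADAMTS5 (-1.74 ± 0.40, adjusted p = 0.0012), ADAM10 (-1.09 ± 0.15, adjusted p = 1.9e-06) and MMP14 (-1.05 ± 0.15, adjusted p = 3.7e-06) were lower.

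**Figure D4:**
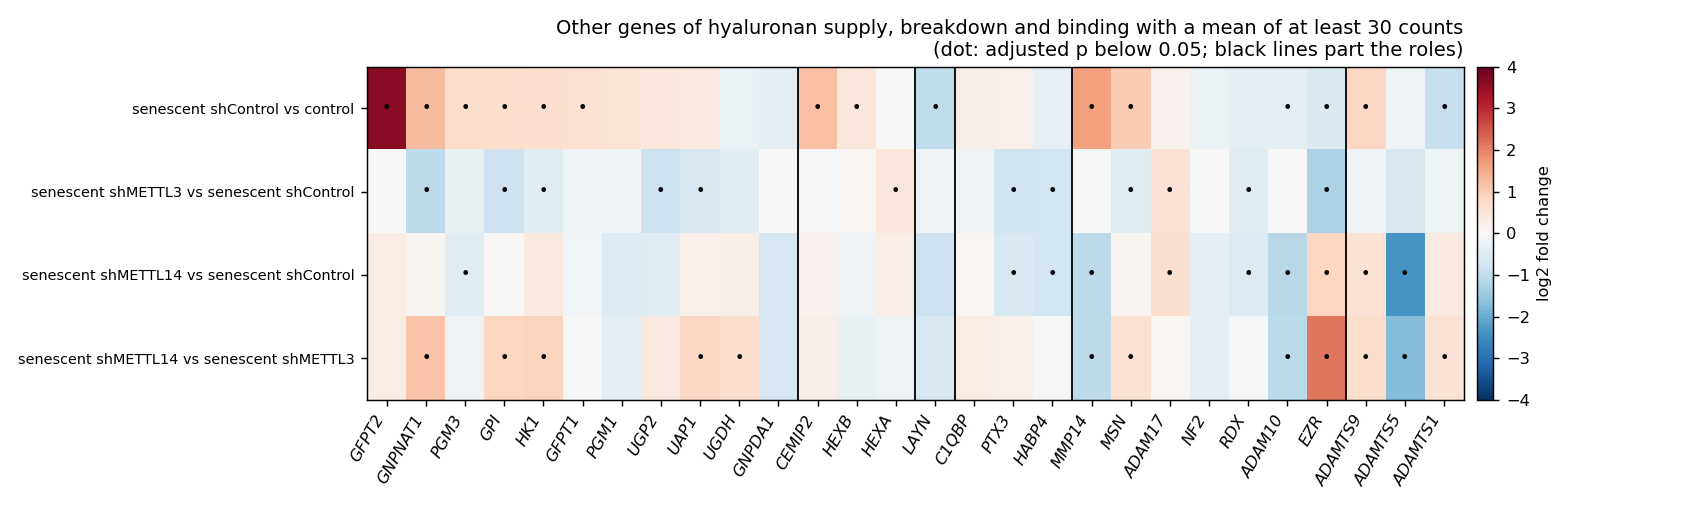
Log2 fold changes (colour, red higher and blue lower) of the 28 other hyaluronan genes that averaged 30 counts or more, in columns ordered by role, for 4 contrasts in rows; a dot marks an edgeR adjusted p below 0.05. Precursor genes stand at the left, with GFPT2 at 3.60 in senescent shControl cells, and ADAMTS5 has the deepest fall with shMETTL14, at -2.37.

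The genes whose log2 levels over the 8 libraries ran most like those of CEMIP were HIP1, SHANK2, KANK2, MRVI1 and PDZRN3, taken from the 3882 tested genes that averaged 100 counts or more and do not overlap CEMIP. Pearson's r was 0.984, 0.983, 0.976, 0.975 and 0.970, and Spearman's rho 0.952, 0.952, 0.976, 1 and 0.905. These are descriptions over 8 libraries that fall into 4 groups, and the points share their group and library. Of the 5, MRVI1 was the gene with a fall of similar size, from 357 and 306 counts in control to 28 and 77 in senescent shControl, 10 and 5 in shMETTL3 and 3 and 14 in shMETTL14 cells. SHANK2 moved least, from 459 and 435 to 268 and 298, 206 and 162, and 163 and 174 counts. All 5, chosen for a pattern like that of CEMIP, had their highest 2 normalized values in control cells, as CEMIP did. The fibroblast marker DCN, or decorin, had a pattern of this kind too, with 855 and 831, 103 and 197, 25 and 21, and 30 and 34 counts. DCN was picked here after its values were seen, and with shMETTL3 the other fibroblast markers did not all follow it. With shMETTL3 against senescent shControl the log2 fold change was -2.91 ± 0.26 for DCN and -0.85 ± 0.18 for THY1, while COL1A1 was at 0.22 ± 0.16, COL1A2 at 0.30 ± 0.17, COL3A1 at 0.02 ± 0.20, PDGFRB at -0.09 ± 0.20 and LUM at -0.32 ± 0.39. With shMETTL14 against senescent shControl all of these markers were lower. DCN was at -2.38 ± 0.24, THY1 at -0.81 ± 0.18 and COL1A1 at -0.56 ± 0.16. COL1A2 was at -1.28 ± 0.18, COL3A1 at -1.60 ± 0.21, PDGFRB at -1.18 ± 0.23 and LUM at -1.07 ± 0.43.

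**Figure D5:**
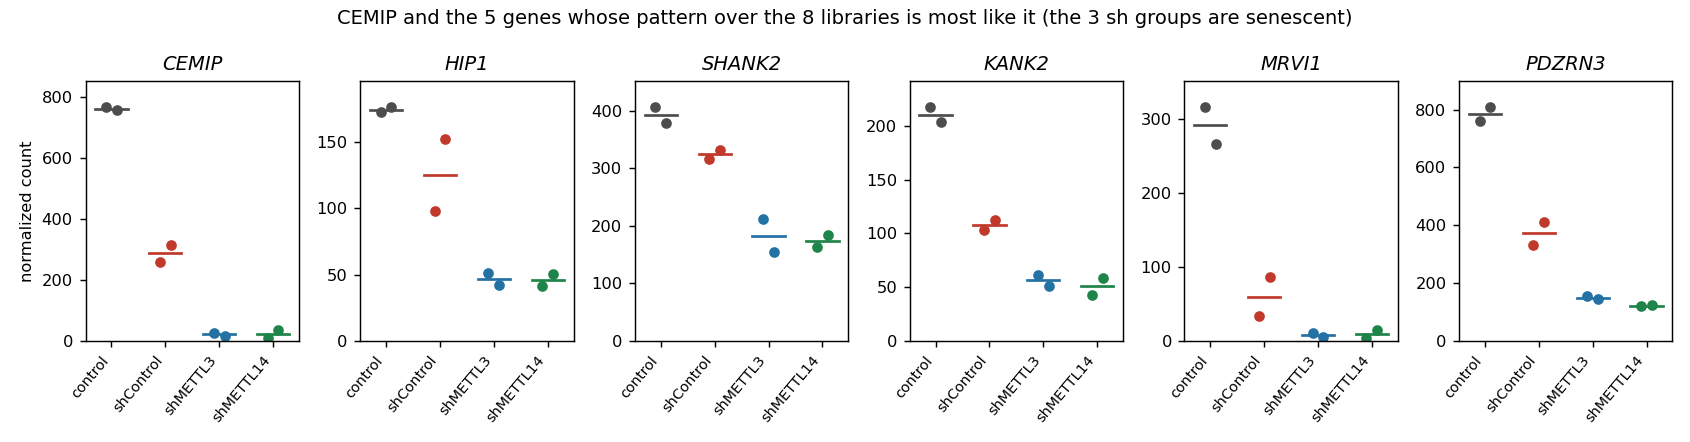
Normalized counts (vertical axes from 0, each panel on its own scale) of CEMIP and the 5 genes most like it, with a point per library and a line per group mean. All 6 genes are highest in control cells and lowest in the 2 knockdown groups, an order that the choice of the 5 by likeness to CEMIP favours. The depth of the fall differs between the 6.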

How the data were processed

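Per the labels, nascent RNA from nuclei was made into directional libraries. The deposited values are raw counts per gene, which the authors made with HOMER on hg19 over whole gene spans, introns included, after alignment with STAR. The file header names a strand option of HOMER. Drosophila spike-in nuclei were added by the authors and were not used here. Gene identity was taken from the symbol column of the file.

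Counts of all 8 libraries were fitted together in edgeR 4.0.16 (R 4.3.3) with TMM scaling, filterByExpr at a minimum count of 10, a group-means design and the quasi-likelihood test, 2-sided, in 6 contrasts, with Benjamini-Hochberg adjustment over all 12844 genes tested and a threshold of 0.05. The script was checked on simulated counts. SE is the log2 fold change over the square root of F, and intervals are at 95%. Ribosomal RNA rows were kept in the main fit. DESeq2 1.42.0, other scalings, other filters, stricter thresholds, fits of only 2 groups, a replicate block, a fit without ribosomal RNA rows and leaving out each library were tried as alternatives. Genes under about 10 counts carry little precision, and the limit of 3 counts covers counting error only.

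The members and the gene lists were chosen with earlier results of these data known. Genes named beyond the 10 members were METTL3 and METTL14, genes that overlap a member, in each contrast the 3 largest called rises and falls of the pathway list at an average of 30 counts or more, and the 5 genes most like CEMIP by Pearson's r of log2 scaled counts (prior count 0.5). DCN and the genes named for low counts in 1 group lie outside that rule. A count of calls over genes with at least 10 counts in a library of both groups compared was added after the data were seen. Exon shares come from GENCODE lifted to GRCh37, and promoter letters from RefSeq. Figures were drawn with matplotlib 3.10.9.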

Additional observations from a re-analysis of the deposited data

Results flagged for a closer look

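The 2 knockdowns differed from each other, by the edgeR test of that difference, in 5 of the 7 members tested, where 16.5% of all genes tested were called higher and 18.7% lower, given here as shMETTL14 minus shMETTL3 on the log2 scale. TNFAIP6 differed by 2.91, VCAN by -1.88, CD44 by -1.20, HAS2 by -1.18 and HYAL2 by 1.03. Both replicates of 1 knockdown lay on the same side of both replicates of the other for all 5 genes. The test that called the 5 used these same libraries, so this adds no support. How many of all genes do the same was not counted. The HYAL2 call was lost with DESeq2, with scaling by library size alone and without shMETTL3 replicate 2, shMETTL14 replicate 1 or shMETTL14 replicate 2, and the HAS2 call without shMETTL3 replicate 2 or shMETTL14 replicate 1. The TNFAIP6 value cannot be told apart from that of LOC101929319 on the opposite strand. No group had enough libraries for a check of single libraries that stand apart.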

How the results depend on the processing

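The falls of CEMIP and the called changes of HAS2, CD44, VCAN and TNFAIP6 kept their direction under the alternatives that gave a value for them. The filter of at least 10 counts in every library removed HAS2 and TNFAIP6, so it gave none for these. Scaling by library size alone shifted the median log2 fold change of all genes by -0.53 in senescent shControl against control, 0.58 and 0.35 for shMETTL3 and shMETTL14 against senescent shControl, 0.07 and -0.14 for them against control and -0.25 between the knockdowns, and called 752 genes higher and 5015 lower in the first of these, against 1711 and 1702 in the main analysis. Under it HYAL2 (-0.26) and VCAN (-0.36) in senescent shControl and HYAL2 in shMETTL14 against control (-0.051) turned negative, none of them called in the main analysis. Leaving out a library turned the uncalled values of HAS3 in senescent shControl (-0.54 to 0.32 over the left-out libraries, with 0.19 without control replicate 1 and 0.32 without shControl replicate 2), HYAL2 there (-0.14 to 0.53, lowest without shControl replicate 2) and in shMETTL14 against control (-0.071 to 0.28, lowest without control replicate 1), TNFAIP6 in shMETTL3 against control (-1.85 to 0.18, with 0.18 without control replicate 1 and 0.091 without shMETTL3 replicate 2) and CD44 in shMETTL14 against control (-0.27 to 0.097, highest without shMETTL14 replicate 1). The cause was not tested.

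The share of all genes called in both directions together follows each count in brackets, to be read beside it, and ranges over left-out libraries are for libraries of the 2 groups compared unless another is named. Calls among members went from 5 to 3 (24.2%) for shMETTL14 against senescent shControl, 4 to 2 (41.7%) for shMETTL14 against control and 5 to 3 (41.1%) between knockdowns with at least 10 counts in every library, a filter that leaves 4 members, and from 5 to 3 (22.8%) for shMETTL3 against control when only log2 changes of 1 or more either way counted. Leaving out single libraries gave 1 (10.9%, without shControl replicate 2) to 4 (29.3%) calls for shMETTL3 against senescent shControl, and 3 to 5 between the knockdowns, with 3 without shMETTL3 replicate 2 (25.6%) or shMETTL14 replicate 1 (17.7%). In the list of 37 other genes, that size limit left 7 calls (14%) in senescent shControl against control, 5 (9.99%) and 5 (9.86%) for shMETTL3 and shMETTL14 against senescent shControl, 12 (22.8%) and 17 (23.3%) for them against control and 7 (17.1%) between the knockdowns. For shMETTL3 and shMETTL14 against senescent shControl, DESeq2 gave 6 (13.1%) and 6 (11.8%), and an adjusted p below 0.01 gave 7 (13.6%) and 7 (12.2%). Leaving out single libraries gave 9 (13.4%, without shControl replicate 1) to 16 (17.7%) calls in senescent shControl against control, and 18 (31.9%) without shMETTL3 replicate 2, 4 (10.9%, without shControl replicate 2) to 14 (29.3%) for shMETTL3 against senescent shControl, with 9 (12.7%) without shControl replicate 1, and for shMETTL14 5 (10.1%, without shControl replicate 2, and 9.34%, without shMETTL14 replicate 1) to 8 (14.9%), with 6 (10.9%) without shControl replicate 1. For shMETTL14, leaving out a library of another group gave 11 (18.5%) without either control replicate and 18 without shMETTL3 replicate 1 (26.3%) or 2 (26.5%), against 12 (21.2%) with all libraries. The HYAL2 calls, shMETTL3 against control and between the knockdowns, were lost with DESeq2 (adjusted p 0.15 and 0.12) and by library size alone (adjusted p 0.071 and 0.10).

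Replicate numbers are shared by the 4 groups in the labels, but replicate differences correlated at -0.05 to 0.08 between groups, so the numbers were not read as pairs. With a replicate block, calls among the 37 genes were 15 in senescent shControl against control (26.5%) and 15 for shMETTL3 against senescent shControl (23.4%), and no call count moved by over 1.5 times. Depth limits HAS1, HYAL1 and HYAL3, which did not pass the filter of the main fit, so differences in them were not tested there. The fits that left out a library tested 8 members, except the fit without shMETTL14 replicate 1, which tested 7.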
